A study of Mus musculus with 6 samples.

Results

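Procr, Inpp5d, Bcl11b, Id4, Trp63, Bmi1 and Msi1 have each been proposed as a marker or regulator of mammary stem or basal cells, and their transcripts were compared between Lgr5-positive and Lgr5-negative cells of the mouse mammary gland. They are 7 of the 20887 genes that the array's probes name through RefSeq transcripts. These genes are read by 11 of 55681 non-control probes, of which 10 passed the filter on dim probes (Cy5 signal well above background on at least 3 of 6 arrays) and were tested among 34528 probes. The genes were chosen by name, as reported stem or basal genes, at a time when earlier results of these data were known.

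The donors of both groups were virgin mice of strain C57/B6 with the lgr5-egfp-ires-creert2 allele, in which the Lgr5 locus drives EGFP and an inducible Cre. The allele is shared by both groups, so no sample lacks it. Mammary cells that were Lin-, CD24+ and CD29hi, a gate the labels name P4, were sorted by EGFP, and total RNA of each fraction was hybridised on 3 two-colour Agilent arrays against a universal mouse reference RNA made from 11 cell lines. The mice's age, the number of animals behind a sample and the antibodies behind the lineage gate are not given in the labels, and nothing says that replicates came from separate animals, so a p-value measures the spread between these samples.

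The basal layer of the mammary epithelium holds myoepithelial cells and the cells that can rebuild a gland when transplanted, and several groups have sought genes that single out the latter. Procr is the cell surface receptor of activated protein C and has been used to isolate multipotent basal cells, and it is also a receptor of vascular endothelium. Inpp5d encodes SHIP1, a phosphatase of blood cells that removes the 5-phosphate of the PI3K product. A shorter form, s-SHIP, starts from an internal promoter and has been used as a reporter of mammary cap cells. Bcl11b is a zinc finger repressor best known in T cells and linked to quiescence of basal cells. Id4 blocks basic helix-loop-helix factors and marks basal cells, and Trp63 encodes p63, the master regulator of basal epithelia. Bmi1 is a subunit of Polycomb repressive complex 1, and Msi1 is an RNA-binding protein of neural and epithelial progenitors.

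Values are log2 ratios of Cy5 (sample) to Cy3 (reference) unless stated otherwise. A difference is Lgr5-positive minus Lgr5-negative on that scale, so a difference of -1 is a 2-fold lower ratio. Cy5 signal was lower on Lgr5-positive arrays, with a median of 137 to 169 against 200 to 278 on Lgr5-negative arrays, over a local background of 64 to 76. Lgr5 itself, read by 1 probe, was at 4.24, 5.36 and 5.01 on Lgr5-positive arrays 1 to 3 and at 2.84, 4.04 and 3.31 on Lgr5-negative arrays 1 to 3, and the difference was 1.47 (SE 0.40). It did not pass with the group alone (adjusted p = 0.429) and rose with the replicate number as a block (SE 0.13, adjusted p = 0.0013). Under median centring the difference was 0.92. Arrays with the same replicate number deviated together from their group means, and this blocked fit treats them as pairs. The labels do not say whether same-numbered arrays shared a sort or animals, so the pairing rests on the expression values themselves. The 8 basal markers (Krt5, Krt14, Krt17, Acta2, Mylk, Myh11, Cnn1 and Oxtr) were all well above background on all 6 arrays. So were 10 of 10 tested luminal, 6 of 6 fibroblast and 13 of 14 leukocyte markers. Detection alone therefore does not tell basal cells from other types.

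Procr and Inpp5d were the genes of this set whose groups did not overlap. The start regions of both are printed here so that the regulatory letters beside the largest differences can be read. They come from RefSeq's table for GRCm38.p6, on the plus strand, 5′ to 3′, and stop before the first annotated base of the gene. The array itself is annotated on another build, mm9. Capitals mark matches, on either strand, to the 5 motifs searched: the E-box CANNTG, the ETS core GGAAG, the AP-1 site TGANTCA, the GATA site AGATAA and the TATA box TATAAA.
Procr, chr2:155750967-155751124: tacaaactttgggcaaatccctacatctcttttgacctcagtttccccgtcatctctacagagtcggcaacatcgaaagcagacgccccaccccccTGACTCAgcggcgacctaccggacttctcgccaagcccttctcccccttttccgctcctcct
Inpp5d, chr1:87620062-87620311: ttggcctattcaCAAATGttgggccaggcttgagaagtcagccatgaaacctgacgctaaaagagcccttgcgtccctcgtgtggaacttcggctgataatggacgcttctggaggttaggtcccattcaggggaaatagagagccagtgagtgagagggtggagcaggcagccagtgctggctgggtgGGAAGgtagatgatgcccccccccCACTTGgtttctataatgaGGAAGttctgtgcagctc

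The Procr window of 158 bases held 1 AP-1 match, a string found in 4.27% of all 32851 windows cut to their first 158 bases. The other windows were cut by length and not at their own gene starts. The Inpp5d window of 250 bases held 2 E-box matches and 2 ETS cores, strings found in 66.2% and 64.1% of windows cut to their first 250 bases. No other match was found in either window, and no match was shared between the 2 genes. The Inpp5d window lies at the start of the full-length gene and not at the internal s-SHIP promoter. These matches are descriptions of letters, and no binding was measured.

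Procr had the largest difference of the 7 genes. Its log2 ratio was -0.39, 1.17 and 0.47 on Lgr5-positive arrays 1 to 3 and 1.91, 3.03 and 3.60 on Lgr5-negative arrays 1 to 3. Every Lgr5-positive array lay below every Lgr5-negative one, and the same order showed in the raw Cy5 signal of the spot, at 596, 2709 and 1464 against 4282, 17741 and 21379. The group means were 0.42 ± 0.78 and 2.85 ± 0.86 (SD, n = 3 each), a difference of -2.43 (SE 0.53) or 5.40-fold. It was -2.30, -1.87 and -3.13 in pairs 1 to 3.

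The Procr difference did not pass the limma test with the group alone (adjusted p = 0.261). With the replicate block Procr fell in Lgr5-positive cells (SE 0.22, adjusted p = 0.0016). Only 0.316% of the 34528 probes tested had a lower difference. Leaving out single arrays gave -2.90 to -2.03, and leaving out pairs from the blocked fit gave -2.72 to -2.08 with the call kept each time.

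**Figure D1:**
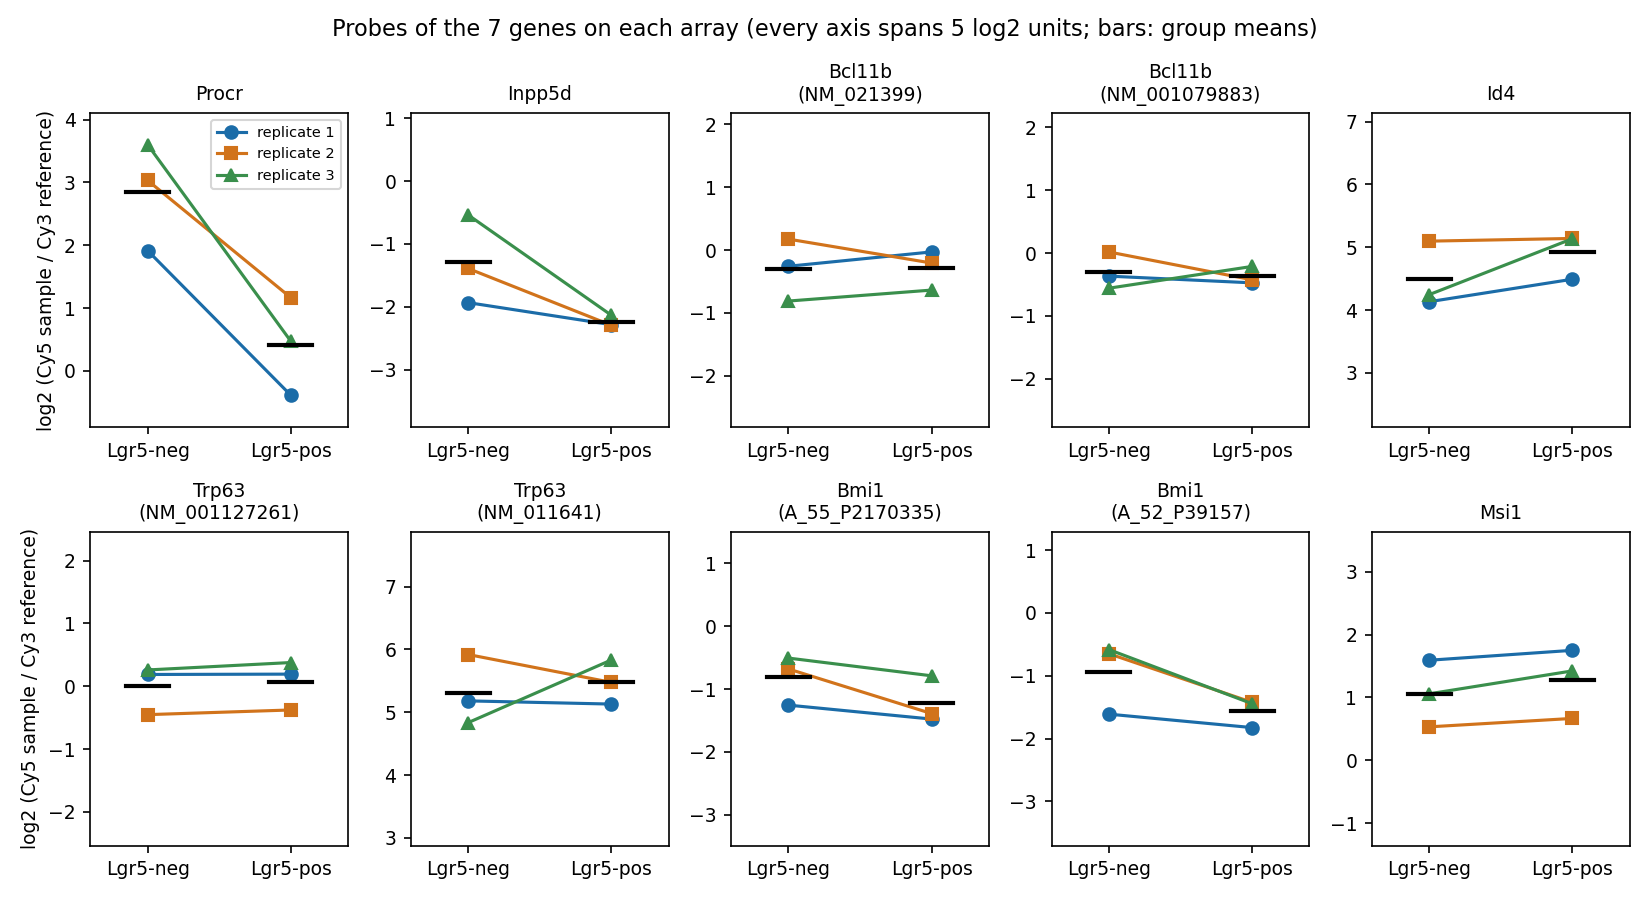
Log2 ratio of Cy5 (sample) to Cy3 (reference) for the 10 tested probes of the 7 genes on each of the 6 arrays; lines join arrays with the same replicate number, black bars are group means, and every panel spans the same number of log2 units. Procr and Inpp5d are the panels in which all 3 Lgr5-positive points lie below all 3 Lgr5-negative points.

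Inpp5d was lower in Lgr5-positive cells in all 3 pairs without passing the test. Its log2 ratio was -2.29, -2.30 and -2.14 on Lgr5-positive arrays 1 to 3 and -1.94, -1.39 and -0.54 on Lgr5-negative arrays 1 to 3. The Lgr5-positive values were nearly equal and the Lgr5-negative ones spread widely, with SDs of 0.09 and 0.70 (n = 3 each). The difference was -0.95 (SE 0.34, adjusted p = 0.751), or 1.93-fold, and 2.47% of probes tested had a lower one.

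In pairs 1 to 3 the Inpp5d difference was -0.35, -0.90 and -1.60. Without Lgr5-negative replicate 3 the overall difference was -0.58. The spot was dim on Lgr5-positive arrays, with a raw Cy5 signal of 152.5 to 215.5 against 280.0 to 935.5 on Lgr5-negative ones, though well above background on all 6. Which of the SHIP forms the probe reads is not given in the files.

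Bmi1 was read by a pair of probes to the same transcript, and both were lower in Lgr5-positive cells in each pair. The brighter probe (A_55_P2170335) was at -1.48, -1.39 and -0.79 on Lgr5-positive arrays and -1.26, -0.68 and -0.51 on Lgr5-negative arrays, in replicate order. The other probe (A_52_P39157) was at -1.83, -1.42 and -1.45 against -1.61, -0.65 and -0.58. The groups overlapped on both probes, because Lgr5-negative replicate 1 lay among the Lgr5-positive values.

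The differences of the Bmi1 probes were -0.40 (SE 0.28, 95% interval -1.06 to 0.26) and -0.62 (SE 0.31, 95% interval -1.35 to 0.12) with the group alone. The paired intervals, before adjustment for the probes tested, were -0.72 to -0.09 and -0.97 to -0.26. Neither probe passed the limma test with the group alone (adjusted p = 1.00 for each) or with the block (adjusted p = 0.177 and 0.073). Leaving out single arrays gave -0.63 to -0.25 and -0.95 to -0.43. The 2 probes share their transcript and the arrays, so they are not independent evidence of a lower level.

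Id4 and Trp63, which mark basal cells, did not pass the test with either fit in the main processing. Id4 was at 4.49, 5.14 and 5.14 on Lgr5-positive arrays and 4.13, 5.10 and 4.25 on Lgr5-negative arrays, in replicate order. It was higher in all 3 pairs, by 0.36, 0.04 and 0.89, and the groups overlapped. The difference was 0.43 (SE 0.32, 95% interval -0.33 to 1.19, adjusted p = 1.00). The paired interval was 0.04 to 0.82 before adjustment, and the blocked adjusted p was 0.249. It was 0.73 without Lgr5-negative replicate 2, 0.65 without Lgr5-positive replicate 1, 0.25 without Lgr5-negative replicate 1 and 0.20 without pair 3. Under median centring in place of loess it was -0.01.

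Trp63 was read by a probe to NM_011641 and a probe to NM_001127261, transcripts of the same gene. The first was at 5.13, 5.47 and 5.83 on Lgr5-positive arrays and 5.18, 5.92 and 4.83 on Lgr5-negative arrays, and its pairs disagreed in sign (-0.05, -0.44 and 1.00). The second was at 0.19, -0.38 and 0.38 against 0.19, -0.45 and 0.26. Its pairs differed by 0.0055, 0.07 and 0.12, and the replicates within a group spread over a wider range than the groups.

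The differences were 0.17 (95% interval -0.60 to 0.94) for the NM_011641 probe and 0.07 (95% interval -0.61 to 0.74) for the NM_001127261 probe (adjusted p = 1.00 for each). Both turned negative under median centring, at -0.29 and -0.39, where the median of all probes moved from 0.03 to -0.21. In the paired fit under median centring the NM_001127261 probe passed as lower (adjusted p = 0.036). These intervals leave room for differences in either direction, so equal levels were not shown.

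Bcl11b and Msi1 did not pass with either fit. Bcl11b's brighter probe (NM_021399) was at -0.03, -0.21 and -0.64 on Lgr5-positive arrays and -0.26, 0.17 and -0.81 on Lgr5-negative arrays. The other (NM_001079883) was at -0.47, -0.43 and -0.21 against -0.37, 0.017 and -0.56. Groups overlapped on both, and pairs differed in sign on both. The differences were 0.0074 (SE 0.29, 95% interval -0.69 to 0.71) and -0.07 (SE 0.20, 95% interval -0.54 to 0.40), with an adjusted p of 1.00 for each. The first was -0.30 under median centring.

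Msi1 was at 1.75, 0.67 and 1.42 on Lgr5-positive arrays and 1.59, 0.53 and 1.06 on Lgr5-negative arrays. Replicate 2 was the lowest and replicate 1 the highest in both groups, and the pairs differed by only 0.16, 0.13 and 0.36. The difference was 0.22 (SE 0.37, 95% interval -0.66 to 1.098, adjusted p = 1.00). It was -0.24 under median centring and -0.05 with the Cy5 channel alone, so it has no settled direction. A second Msi1 probe (A_55_P2062688) had 0 of 6 arrays well above background and was not tested.

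**Figure D2:**
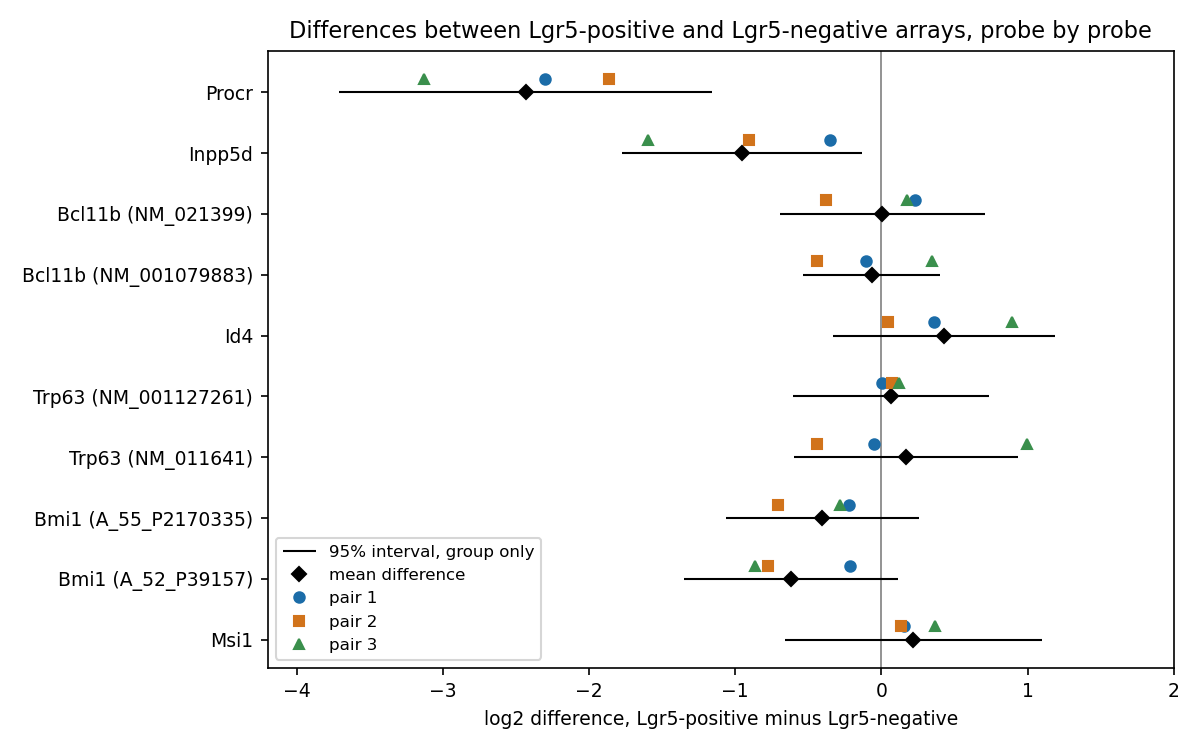
Log2 difference, Lgr5-positive minus Lgr5-negative, for the 10 tested probes; diamonds are mean differences, lines their 95% intervals with the group alone, and coloured points the 3 pairs. The interval excludes 0 for Procr (-3.71 to -1.16) and Inpp5d (-1.77 to -0.13), before adjustment for the probes tested.

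Across the set, 0 of 10 probes passed with the group alone in limma, where 0.101% of all probes did, and 2 had an unadjusted p under 0.05 (background 5.35%). At that unadjusted level 5 of 10 were counted with the replicate block, where 17% of all probes were. With the replicate block 1 of 10, Procr, passed and was lower, where 4.41% of all probes passed and 3.18% were lower. The groups did not overlap on 2 of 10 probes, both lower, against 9.1% of all probes and 5.58% that were lower. All 3 pairs had the same direction on 7 of 10 probes, against 40% of all probes. Of these, 3 were higher (background 23%) and 4 lower (background 17%), and the 4 include both Bmi1 probes. The median difference of the 10 probes was -0.03, against 0.03 over all probes.

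Several genes listed under the protein C pathway had negative differences too, and the list includes tissue factor and its inhibitor. Of the 8 of 10 listed genes that were tested, 7 had negative values and the median was -1.21, against 0.01 over the 15682 genes tested with 1 probe each. None passed limma with the group alone (0 of 8, where 0.185% of all genes did; 5 of 8 had an unadjusted p under 0.05). With the block 5 fell and 1 rose, where 5.53% of all genes fell and 2% rose. The blocked count was 3 that fell and 0 that rose without pair 2, and the same with the scanner's own ratios.

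S1pr1, the sphingosine-1-phosphate receptor through which activated protein C acts on endothelium, was at -2.97 (SE 0.58) and fell with the block (adjusted p = 5.7e-04). Thbd, thrombomodulin, which presents thrombin to protein C, was at -2.53 (SE 0.68) and fell with the block (adjusted p = 8.6e-04). Tfpi, the inhibitor of tissue factor, was at -2.59 (SE 0.48) and F3, tissue factor itself, at -1.11 (SE 0.42), and both fell with the block (adjusted p = 0.0040 and 0.0071). F2r, a thrombin receptor, at -1.32, was the remaining one that fell. Pros1, protein S, a cofactor of activated protein C, was the one that rose, at 0.64 (SE 0.41; blocked adjusted p = 0.045), and it was at 0.14 under median centring, where it did not pass. A second Tfpi probe gave -1.73, another was also negative, and a second F3 probe gave -0.98. F2r and Pros1 are named here after their values were seen.

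Markers of vascular endothelium moved with Procr. Of 11 such genes 10 had negative values, and the median was -2.04. With the group alone 0 passed, and 10 had an unadjusted p under 0.05, where 5.35% of all probes did. With the block 8 fell, where 5.53% of all genes did. With the scanner's own ratios 3 fell with the block, and among the 9 genes well above background on all 6 arrays 7 fell. Egfl7 was at -3.30 (SE 0.38, blocked adjusted p = 0.0023), Plvap at -2.41 (SE 0.31, blocked adjusted p = 0.0015; -1.02 on a second probe) and Vwf at -2.04 (SE 0.43, blocked adjusted p = 0.0028), while Tie1 fell with the block and was above background on 0 of 3 Lgr5-positive arrays. Kdr, a VEGF receptor, gave 0.18 with its brightest probe but -2.66 with a second one.

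The summed Cy5 signal of the 11 endothelial genes after normalization was 12554 to 33370 on Lgr5-positive arrays and 104891 to 189979 on Lgr5-negative arrays, without overlap. Every one of the 11 was above background on some array. Their part in the Procr difference was not tested, and in these sorted populations fewer cells of a type and less RNA per cell cannot be told apart.

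**Figure D3:**
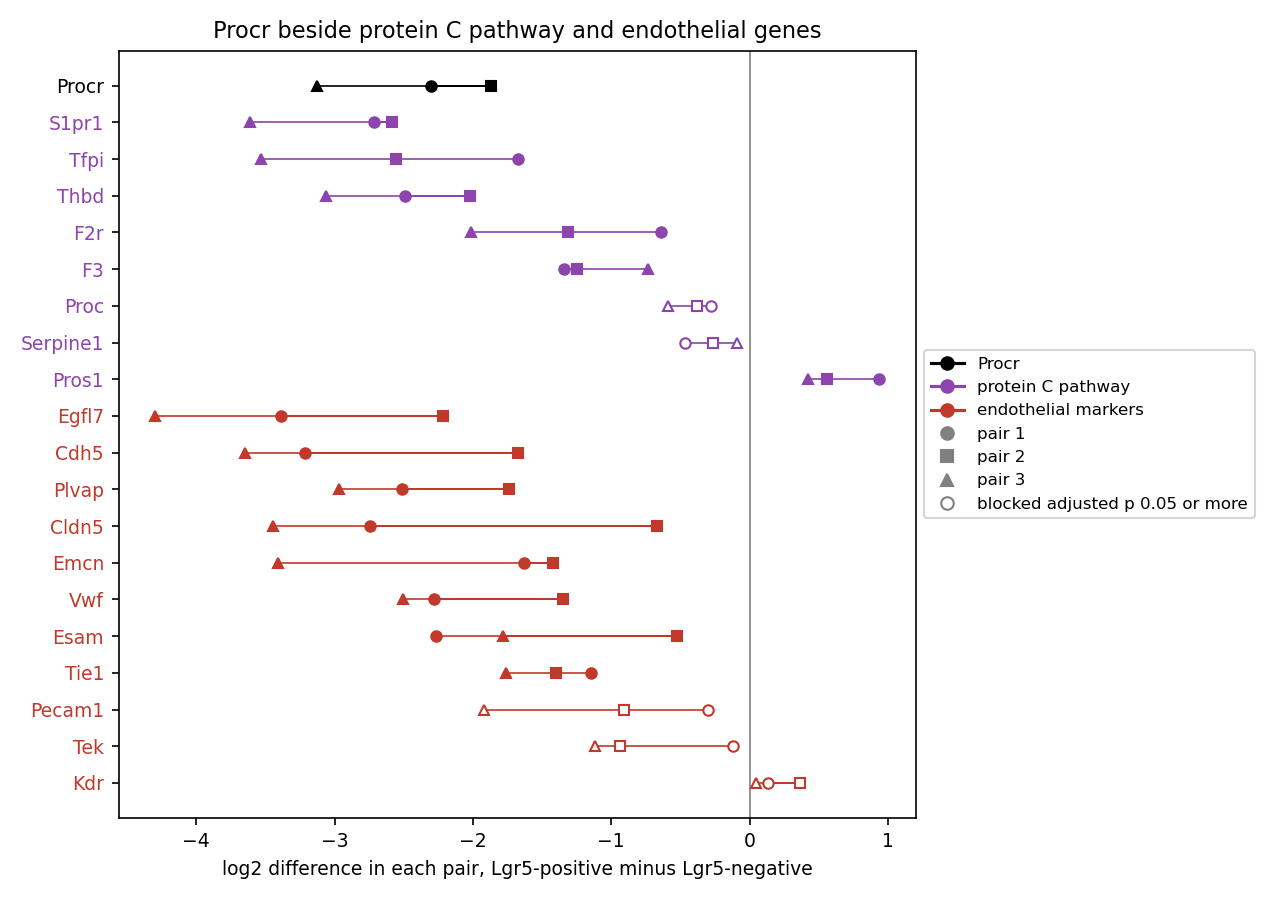
Log2 difference in each of the 3 pairs for Procr, the 8 tested protein C pathway genes and the 11 endothelial markers; filled symbols are genes with a blocked adjusted p under 0.05. Procr (-3.13 to -1.87) lies among S1pr1, Tfpi and Thbd and among most endothelial markers, with Pros1 and Kdr on the other side of 0.

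The genes whose profile over the 6 arrays lay closest to Procr were Upp1, Adcy4 and Flt1. Likeness was the root mean square difference between mean-centred log2 ratios, over 15682 genes, and was 0.13, 0.20 and 0.21, against an SD of 1.52 for Procr itself. Upp1, uridine phosphorylase, was at -2.33 (SE 0.60), Adcy4, an adenylyl cyclase, at -2.27 (SE 0.45), and Flt1, a VEGF receptor, at -2.14 (SE 0.57). With 6 arrays and this many genes, close profiles occur for many genes, and these names describe the arrays.

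Genes of the pathway of Inpp5d, and of the blood cells in which it is best known, had values nearer 0. Of 16 listed PI3K subunits, Akt kinases and phosphoinositide phosphatases 13 were tested, with a median of 0.06 and a range of -0.21 to 0.41. In the main processing 0 passed with either fit (0 at an unadjusted p under 0.05 with the group alone). All 13 were negative under median centring, with a median of -0.22 where that of all probes was -0.21, and 2 fell there with the block. Those with the lowest blocked p were Inpp5e, a phosphatase of the primary cilium, at 0.41 (adjusted p = 0.200), and Pik3r2, a regulatory subunit, at 0.31 (adjusted p = 0.277). The paralog Inppl1, which encodes SHIP2, was at -0.20.

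Inpp5d, at -0.95, lay below each of these 13 genes. Of 16 leukocyte markers 14 were tested, with a median of 0.13 (-0.22 under median centring). None passed limma with either fit in the main processing (0 of 14, and 0 at an unadjusted p under 0.05 with the group alone). Under median centring 1 fell with the block. Ptprc, which encodes CD45, was at 0.29. Their summed Cy5 signal was 17985 to 73394 on Lgr5-positive arrays and 14544 to 60433 on Lgr5-negative arrays. Itgam, an integrin of myeloid cells, was at 0.26 (blocked adjusted p = 0.317).

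The profiles nearest to Inpp5d were those of Txnip, Ndst3 and Arhgef7, with likeness of 0.08 each against an SD of 0.69. Ndst3 had 0 of 3 Lgr5-positive arrays above background, so it has no exact fold. Txnip, which binds thioredoxin, was at -1.08 (SE 0.33), and Arhgef7, an exchange factor, at -1.02 (SE 0.38). Msi1, with an SD of 0.50, was nearest to Klk1b21, Clps and Dab1, at 0.05 each. Kallikrein genes such as Klk1b21 resemble one another closely, so which one was read is uncertain. The other genes of the set varied by less than the SD of 0.5 set for this comparison.

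Among Bcl11b's relatives, the paralog Bcl11a was at 0.02 and the NuRD subunits lay between -0.07 and 0.40. The COUP-TF genes Nr2f1 and Nr2f2, whose products bind Bcl11b (also named CTIP2), were at -0.99 (SE 0.18) and -0.84 (SE 0.24). Both fell with the block (adjusted p = 0.0072 and 0.043), and a second Nr2f1 probe gave -1.46. They were the only called ones of 11 tested genes, where 5.53% of all genes fell with the block. With the group alone 0 of the 11 passed (2 at an unadjusted p under 0.05, where 5.35% of all probes were). Without pair 2 neither passed. The list's median was 0.02, and -0.32 under median centring.

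Id and E protein genes had a median of 0.14 over 6 genes (-0.31 under median centring). In the main processing 0 passed limma with either fit (1 at an unadjusted p under 0.05 with the group alone). In the blocked fit 1 fell with 1 probe per gene, with the Cy5 channel alone, without the filter on dim probes and without pair 1. The same number fell where all 6 arrays had to be well above background, and 2 fell under median centring. Id1 was at -0.69 (blocked adjusted p = 0.0503) and lower in all 3 pairs, while Id4 was higher in all 3 pairs, and Id2 and Id3 were at 0.19 and 0.29. Tcf4, an E protein, was at -0.76 (blocked adjusted p = 0.098), with -0.24 on a second probe. The difference between Id4 and Id1 was not tested.

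Of 18 genes of the p53 family and of p63-regulated epithelial genes 17 were tested, with a median of 0.23 and 12 positive values (-0.14 and 5 under median centring). Cdh3, which encodes P-cadherin, was at 1.20 (SE 0.48) and rose with the block (adjusted p = 0.027), the only one to do so, where 2% of all genes rose. Its blocked call ended with the scanner's own ratios and with the deposited values (adjusted p = 0.113 for each). Under median centring Cdh3 was at 0.69 and kept the call. None passed with the group alone (0 of 17, with 1 at an unadjusted p under 0.05). Krt5 and Krt14, the keratins of the basal layer, were at 0.37 and 0.48, and Trp53 and Trp73 at 0.23 and 0.05. The 8 basal markers had a median of 0.44 and 8 positive values (0.05 and 4 under median centring), and Oxtr (0.76), Cnn1 (0.62) and Krt17 (0.62) rose with the block (adjusted p = 0.020, 0.041 and 0.048). These 3 calls ended under median centring, with the Cy5 channel alone and without pair 2 or pair 3. They also ended with the scanner's own ratios and with the deposited values. Of the 8 basal markers 0 passed with the group alone (3 at an unadjusted p under 0.05). Their part in the values of Id4 and Trp63 was not tested.

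The listed genes of Polycomb repressive complex 1 and of the Ink4 locus had mostly positive values beside the negative ones of Bmi1, though not under median centring. Of 19 genes in the list 18 were tested, with a median of 0.19 and 13 positive values (-0.23 and 6 under median centring), and 0 passed with the group alone (3 at an unadjusted p under 0.05). Rnf2, the catalytic partner of Bmi1, was at 0.46, and Pcgf2, its closest paralog, at 0.40. Neither passed in the main processing, and these 2 are named after their values were seen. Cdkn2b, which the complex is known to repress, was at -0.92 (SE 0.31) and fell with the block (adjusted p = 0.036), and Cdkn2a, at the same locus, was at 0.41 and did not pass. No other gene of the list passed with the block in the main processing, and Cdkn2b did not pass without pair 1 or 2. Over all genes 5.53% fell and 2% rose with the block. In other settings of the blocked fit 1 gene of the list rose with 1 probe per gene, 1 where all 6 arrays had to be well above background and 2 with array weights. Under median centring 0 rose and 3 fell.

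Musashi's paralog Msi2 was at 0.15. In the main processing 0 of 5 genes of its list passed limma with either fit (0 at an unadjusted p under 0.05 with the group alone). The list's median was 0.05, or -0.31 under median centring. In the blocked fit 1 gene fell under median centring and 1 without pair 3. Hes1, a Notch target, was at -0.84 (blocked adjusted p = 0.072) and Cdkn1a, which encodes p21, at 0.10.

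The other marker lists had medians nearer 0 than the endothelial one, and the difference between lists was not tested. The 10 luminal genes centred on -0.42, and Esr1, Foxa1 and Kit fell with the block (-1.26, -0.98 and -1.60), with -0.14 on a second Esr1 probe. Among 6 fibroblast genes, centred on -0.44, Dcn (-1.37), Lum (-0.84) and Col3a1 (-0.53) fell with the block. The 4 tested pericyte genes centred on -0.50, and Rgs5 fell with the block. Over all genes 5.53% fell with the block. When the scanner's own ratios were used, 0 of 10 luminal, 1 of 6 fibroblast and 0 of 4 pericyte genes fell with the block. Under median centring the blocked fit called 6 of 6 fibroblast, 4 of 4 pericyte and 10 of 11 endothelial genes lower. In that setting it called 8474 of all 34528 probes lower. The 5 Schwann cell genes centred on -0.15. None of these lists had a gene that passed with the group alone. Their part in the values of the 7 genes was not tested.

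**Figure D4:**
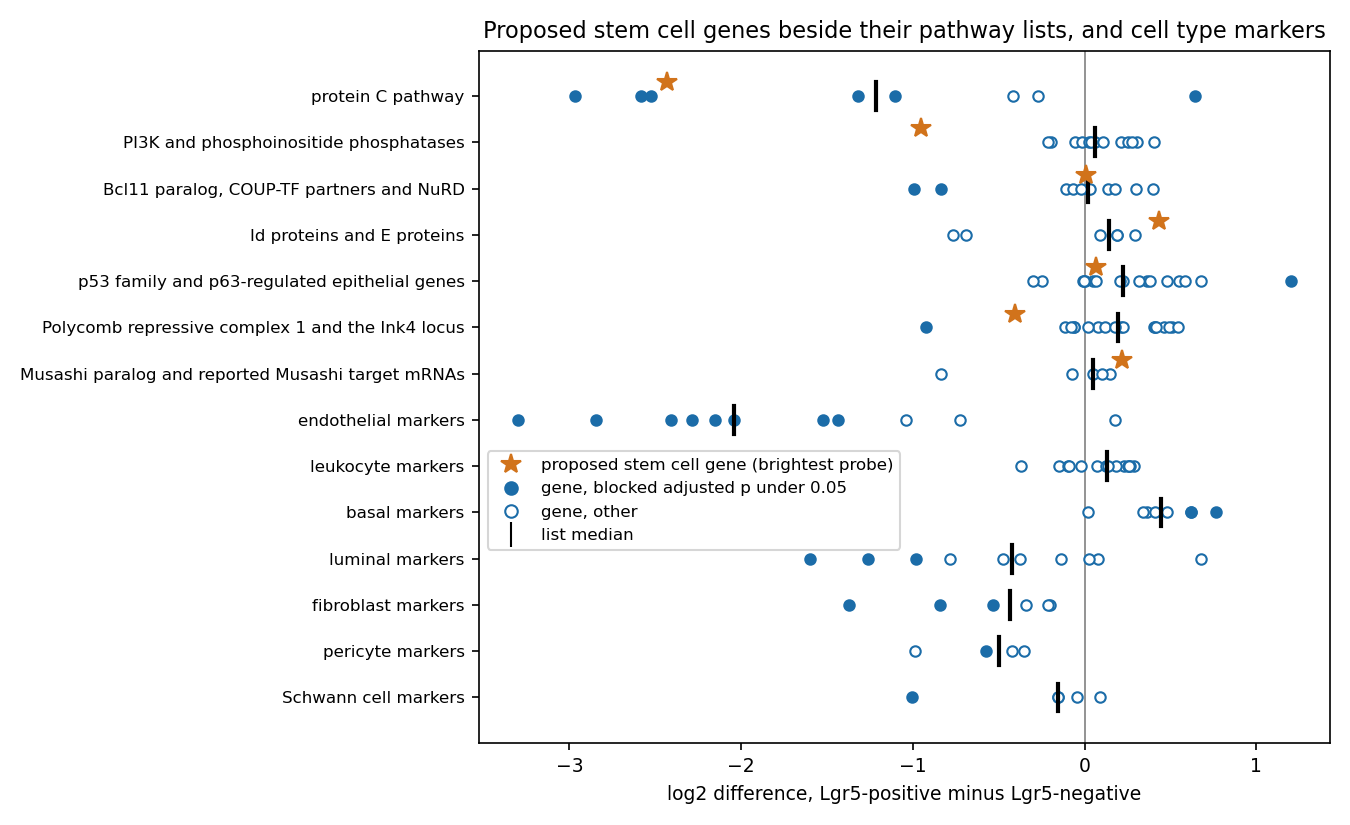
Log2 difference, Lgr5-positive minus Lgr5-negative, of the tested genes of each pathway and marker list (1 probe a gene; filled where the blocked adjusted p was under 0.05; vertical bars are list medians), with stars for the proposed stem cell genes. The protein C pathway (median -1.21) and endothelial markers (median -2.04) lie to the left. Inpp5d lies left of every gene of its list, and Bmi1 lies left of its list's median but within the list's range.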

How the data were processed

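The authors deposited 1 Agilent Feature Extraction file per array (version 11.0 per the submitters' processing notes, 11.0.1.1 per the file headers), holding the median intensity of each spot and its background, processed intensity and a log10 ratio of Cy5 to Cy3, per the file headers. A deposited table of the whole series holds log2 ratios that are centred on each probe's median, as its values show. Its column medians were -0.0016, 0.03 and 0.02 (Lgr5-positive) and 0.0064, -0.02 and -0.05 (Lgr5-negative), its direction matched the scanner's ratios (correlations 0.920 to 0.950), and any further scaling is unknown.

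Background was removed from median intensities with normexp (offset 50), followed by loess per array (limma 3.58.1, R 4.3.3). Outlier-flagged and control spots took no part, and repeat spots were averaged. Probes were named through RefSeq transcripts (20504 of 20847 mRNA accessions matched, in a table of GRCm38.p6). Of the probes passing the filter, 24 with a flagged spot were left out. No spot was saturated. All arrays lay on 1 slide and were scanned together, so no slide block could be fitted.

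Every probe was tested two-sided with lmFit and eBayes, and p-values were adjusted by Benjamini-Hochberg over all 34528 probes (threshold 0.05). Lists used each gene's brightest probe over both channels. The replicate number as a block was an alternative. Same-numbered arrays deviated together across genes (correlations 0.810, 0.819 and 0.675), which pairs them by the criterion of 0.1. They were slide neighbours in a fixed order, so in each pair the effects of group and of slide position cannot be told apart. The scripts were tested on simulated data. The 7 genes and the 14 lists were chosen with earlier results of these data known. Genes of a list are named when they passed either fit, at most 4 of them, and where none passed the 2 of lowest blocked p. Paralogs, partners and keratins named beyond this were chosen after their values were seen. Of the genes this rule takes, 2 are not reported here. For a gene with an SD over 0.5 on the 6 arrays, the 3 nearest profiles are named. Alternatives changed the background correction, scaling, filter, probe level, array weights or arrays used. The number of arrays limits the precision.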

Additional observations from a re-analysis of the deposited data

How the results depend on the processing

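With the group alone the 7 genes had 0 probes past the threshold in every alternative, and with the replicate block 1. All probes past the threshold numbered 35, but 96 with 1 probe per gene or with array weights, 2 under median centring, 13 with the Cy5 channel alone, 15 where all 6 arrays had to be well above background and 1522 with the replicate block. Without single arrays they ranged from 0 to 262, at 0 when Lgr5-positive replicate 1 or 3, or Lgr5-negative replicate 2 or 3, was left out and at 262 when Lgr5-negative replicate 1 was. Pathway genes past the threshold numbered 0 and 10 with the replicate block (0 to 1 without single arrays). Marker genes numbered 0, 3 with 1 probe per gene, 2 with array weights and 19 with the replicate block (0 to 3 without single arrays). The Lgr5 difference of 1.47 passed with the replicate block, and was 0.92 under median centring.

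In the paired fit, whose combinations with other settings were chosen after seeing the data, Procr passed in 9 of 9 settings that keep all arrays (-2.91 to -2.29, highest adjusted p = 0.023). Inpp5d had an adjusted p of 0.056 and passed in 5 of 9 settings (0.0052 to 0.124) and without replicate 1. Bmi1's brighter probe (adjusted p = 0.177) passed in 1 of 9. Its other probe (0.073) passed in 2 of 8 and without replicate 1, and Trp63 (NM_001127261) passed in 1 of 9, as lower. With 5 probes past the threshold median centring called the most, among 8661 probes of which 97.8% were lower, against 72.1% of 1522; with the authors' deposited values 529 passed, and 520 with the ratios of the scanner software. Of the 29 list genes called in this fit, 8 kept the call in all 9 settings and 14 lost it in 2; Krt17 lost it in 5.

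Signs turned for Bcl11b, Id4, Trp63 and Msi1, and the cause was not tested. Under median centring, with either fit, Bcl11b (NM_021399) was at -0.30, Id4 at -0.0105, Trp63 at -0.39 (NM_001127261) and -0.29 (NM_011641) and Msi1 at -0.24. Relative to the median of all probes there, Id4 was at 0.20, Msi1 at -0.03, Trp63 at -0.18 (NM_001127261) and -0.08 (NM_011641) and both Bcl11b probes at -0.08, so the signs of Trp63 and Msi1 turned on that scale too. With the Cy5 channel alone Msi1 was at -0.0464, and with array weights Bcl11b (NM_021399) was at -0.0698, or -0.0895 in the paired fit. Without single arrays the values ranged from -0.25 to 0.24 and -0.20 to 0.0926 for the Bcl11b probes, -0.16 to 0.29 (NM_001127261) and -0.0709 to 0.47 (NM_011641) for Trp63, and -0.0453 to 0.53 for Msi1. Without single pairs they ranged from -0.10 to 0.20 and -0.27 to 0.12 for Bcl11b and from -0.25 to 0.47 for Trp63 (NM_011641); the first Bcl11b probe was at -0.0763 without pair 3. The slide block planned as an alternative was not run, since there was 1 slide. In the main processing the block changed the call of Procr and of no other of the 7 genes. Dim spots, such as those of Inpp5d, limit the precision of a ratio.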
